A study of Mus musculus with 12 samples.

Results

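The comparison described here is the effect of acute myeloid leukaemia (AML) on gene expression averaged over bone marrow and lung, computed per gene as the mean of the difference between AML and control in the marrow and the same difference in the lung, on the log2 scale. All 12 libraries of the series entered it, 3 in each of 4 groups. Marrow control and lung control were Vecad+ endothelial cells from normal VECadCre-tdTomato mice that received no transplant. Marrow AML and lung AML were cells with the same label from VECadCre-tdTomato mice that had received AML cells of the genotype Trp53(R172H/delta), and the hosts of all 4 groups thus carried the same Cre and reporter. Only the AML hosts received a transplant, so effects of the leukaemia and of the transplant itself cannot be told apart. Both are covered by the term AML effect below. Cre in this line is driven by the promoter of Cdh5, which encodes VE-cadherin, so the reporter marks a cell's history as well as its present state. The labels used here do not state the age and sex of the mice, the time after transplant, the number of cells per library or whether replicates were separate mice, so p-values measure only the spread between these libraries. RNA was sequenced from low-input libraries, and the deposited values are raw counts per gene symbol.

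Endothelial cells line blood vessels, and in the marrow they also form part of the niche that keeps blood stem cells. Their identity is carried by a small set of transcription factors, junction proteins and growth factor receptors, and they respond to circulating signals, among them glucocorticoids, interferons and cytokines. Glucocorticoids act through a nuclear receptor that switches on a well-known group of genes in most cell types. Interferons switch on antiviral genes, guanylate-binding proteins and immunity-related GTPases.

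Of 18147 genes that passed the expression filter, 2512 (13.8%) were higher and 2772 (15.3%) were lower on the averaged effect at an adjusted p under 0.05, in the edgeR quasi-likelihood test with Benjamini-Hochberg adjustment. Most of these calls came from the marrow. There, 3694 genes (20.4%) were higher and 4263 (23.5%) lower in AML, against 212 (1.17%) and 211 (1.16%) in the lung. Of the 5284 genes called on the average, 4615 were called in the marrow and not in the lung, 95 in the lung and not in the marrow, 403 in neither and 171 in both. Fitted effects pointed the same way in both tissues for 3561 of the 5284 (67.4%), against 48.0% of all tested genes. The average adds the 2 tissue effects, so genes called on it lean to the same sign by construction, and the higher share is no sign of agreement. Across all 18147 genes, which share 12 libraries and are not independent replicates, the 2 tissue effects had a Spearman correlation of 0.016.

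An average of this kind can be large while a single tissue carries it, so the genes described below had to pass on the average and in each tissue, with the same sign. This held for 91 genes higher in both tissues (0.501% of those tested) and 55 lower in both (0.303%). Another 147 genes were called in both tissues with opposite signs, 89 (0.490%) higher in the marrow and lower in the lung and 58 (0.320%) the reverse, so calls shared by the tissues were split almost evenly between agreement and opposition. The median effects of the 91 were 2.78 in the marrow and 2.23 in the lung on the log2 scale, and those of the 55 were -2.59 and -2.62. AML and control libraries did not overlap in either tissue for 90 of the 91 and 54 of the 55. Lack of overlap was also a condition for naming the largest rises and falls, so below it describes a gene and adds no support. The difference between the tissue effects, called for 5567 of all tested genes (30.7%), was called for 32 of the 146. Leaving out single libraries moved these counts widely: the 91 became 20 without lung AML 1, 25 without lung control 2, 27 without lung control 1 and 28 without lung AML 3. The 55 became 3 without lung AML 1, 4 without lung AML 3, 14 without lung control 2 and 26 without lung AML 2, and 74 and 88 without marrow AML 1 and 3. Without marrow control 2 the 55 became 34. The 91 became 55 without lung AML 2 and 142 without marrow AML 3, and the 2772 lower on the average became 1373 without lung AML 2.

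**Figure D1:**
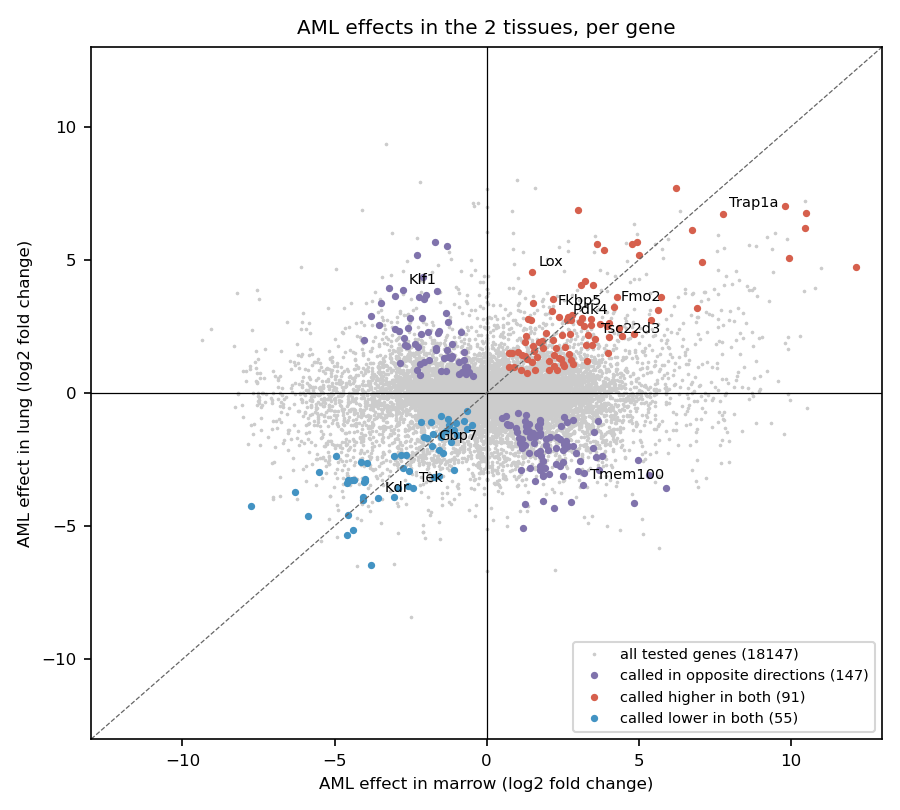
Each point is 1 of 18147 genes, with the log2 fold change of AML against control in the marrow on the x axis and in the lung on the y axis, and the dashed line marks equal effects. The 91 genes called higher and 55 called lower in both tissues lie on either side of that line, and the 147 genes called in opposite directions fill the other quadrants.

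Total counts per library were 12.8 to 39.2 M. The labelled cell type was checked on 25 pan-endothelial markers, all of them present in the files, whose summed share of all counts was 0.0408 to 0.0552% in marrow control, 0.0389 to 0.0455% in marrow AML, 0.440 to 1.51% in lung control and 0.0406 to 0.150% in lung AML. Lung control 2 had the highest of these shares (exact Clopper-Pearson 95% interval 1.51 to 1.52%, counting error only). No pan-endothelial marker was at 0 in a whole group, yet markers of other cells took larger shares. Erythroid genes made up 2.91 to 3.09% of counts in marrow control and 0.189 to 0.760% in marrow AML, and fibroblast and marrow stroma genes 1.57 to 2.39% and 2.02 to 3.18%. Lung epithelium genes made up 16.7 to 20.5% in lung control and 22.3 to 23.9% in lung AML, and monocyte and macrophage genes 2.79 to 3.40% and 2.66 to 3.23%. Pan-leukocyte genes took 0.0222 to 0.0274% of counts in marrow control and 0.0813 to 0.105% in marrow AML, and pericyte and smooth muscle genes 0.0221 to 0.0735% and 0.346 to 1.17%, so that neither list overlapped between the groups. Single leukocyte genes were divided, with 11 of the 17 called higher and 3 lower in the marrow. Of all tested genes, 20.4% were higher and 23.5% lower there. Ptprc, which encodes the leukocyte antigen CD45, had 7.86, 5.23 and 2.52 CPM (counts scaled to library size by TMM factors, the unit of levels below) in marrow control libraries 1, 2 and 3, 0.129, 5.0 and 0.174 in marrow AML, 46.6, 27.0 and 42.6 in lung control and 24.1, 22.2 and 27.1 in lung AML. It overlapped in the marrow and, through lung control 2, in the lung, with an averaged log2 fold change of -1.10 ± 0.66 (adjusted p = 0.239). In the lung, pan-leukocyte genes took 0.0646 to 0.0864% in control and 0.0556 to 0.0745% in AML, and pericyte genes 0.0902 to 0.222% and 0.0603 to 0.0984%. The part of these other cells in the results below was not tested, and fewer cells of a type and less RNA per cell cannot be told apart. Trp53 counts do not separate alleles. Trp53 had 186, 211 and 147 CPM in marrow control libraries 1, 2 and 3, 165, 126 and 128 in marrow AML, 48.7, 55.6 and 48.0 in lung control and 57.1, 45.1 and 42.1 in lung AML, with an averaged log2 fold change of -0.23 ± 0.13 (adjusted p = 0.212), and its libraries overlapped in both tissues.

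Most listed genes induced by glucocorticoids were higher in AML on the average, and 8 of 24 passed the test in both tissues. This list and those below were chosen with earlier results of these data known, so their counts describe them and are no independent support. All 24 genes of the glucocorticoid list were tested, and on the averaged effect 20 were higher, against 13.8% of all tested genes. None was lower, in edgeR, in DESeq2 or at an unadjusted p under 0.05 in edgeR. Their median log2 fold change was 1.77 on the average, 2.55 in the marrow and 1.21 in the lung, where the medians of all genes were -0.08, -0.11 and 0.00. In the marrow alone 18 were higher and 1 lower, where 20.4% and 23.5% of all tested genes were, and in the lung alone 9 were higher, where 1.17% were. Higher in both tissues, as 0.501% of all tested genes were, were the 8 genes Fkbp5, Tsc22d3, Klf9, Cebpd, Pdk4, Sult1a1, Map3k6 and Angptl4. The receptor's own gene, Nr3c1, which is on no list and was looked up after the values were seen, had an averaged log2 fold change of -0.33 ± 0.14 (adjusted p = 0.107).

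Fkbp5 (chr17:28399094-28517527, a position in the GENCODE M21 annotation of GRCm38, as are those below) encodes a co-chaperone that damps the glucocorticoid receptor. It had 15.3, 20.8 and 13.8 CPM in marrow control libraries 1, 2 and 3, 47.8, 51.8 and 119 in marrow AML, 15.8, 10.2 and 12.6 in lung control and 94.2, 131 and 102 in lung AML. Every AML library lay above every control library of its tissue, and marrow AML 3 stood above the other marrow AML libraries. Fkbp5 had an averaged log2 fold change of 2.61 ± 0.25 (adjusted p = 0.000114), made of 2.13 ± 0.35 in the marrow (adjusted p = 0.000668) and 3.08 ± 0.36 in the lung (adjusted p = 0.00262). Tsc22d3 (chrX:140539528-140600659) encodes GILZ, a mediator of the anti-inflammatory action of glucocorticoids. It had 145, 87.9 and 148 CPM in marrow control libraries 1, 2 and 3, 1049, 1569 and 1865 in marrow AML, 364, 298 and 593 in lung control and 1844, 2045 and 1198 in lung AML. Control and AML did not overlap in either tissue, and lung control libraries lay above marrow control libraries. Its effects were 3.56 ± 0.36 in the marrow (adjusted p = 4.37e-05) and 2.02 ± 0.34 in the lung (adjusted p = 0.0147), with an averaged log2 fold change of 2.79 ± 0.25 (adjusted p = 9.42e-05).

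Pdk4 (chr6:5483351-5496309) encodes a kinase that turns off pyruvate dehydrogenase and so spares glucose. It had 26.0, 15.1 and 19.1 CPM in marrow control libraries 1, 2 and 3, 76.1, 129 and 168 in marrow AML, 30.5, 21.4 and 20.7 in lung control and 138, 189 and 160.1 in lung AML. The controls of both tissues were at similar low levels and all 6 AML libraries were above them. The effects were of like size, 2.63 ± 0.31 in the marrow (adjusted p = 0.000101) and 2.75 ± 0.31 in the lung (adjusted p = 0.0025). Angptl4 (chr17:33773750-33781830), a secreted inhibitor of lipoprotein lipase that also stands on the fatty acid and angiogenic lists, had 73.3, 104 and 145 CPM in marrow control libraries 1, 2 and 3, 541, 1072 and 644 in marrow AML, 60.7, 39.2 and 81.8 in lung control and 418, 554 and 404 in lung AML. Marrow AML 2 was the highest of the 12 libraries, and the groups did not overlap in either tissue. Its effects were 2.81 ± 0.36 in the marrow (adjusted p = 0.000167) and 2.92 ± 0.36 in the lung (adjusted p = 0.00366). Called in both tissues in each of the 12 fits that left out 1 library were Fkbp5, Pdk4 and Angptl4.

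Map3k6, a stress-activated kinase, had effects of 3.43 ± 0.41 in the marrow (adjusted p = 0.000104) and 2.55 ± 0.39 in the lung (adjusted p = 0.0108). Sult1a1, a sulfotransferase for phenols and steroids, had 3.28 ± 0.37 in the marrow (adjusted p = 7.56e-05) and 1.80 ± 0.34 in the lung (adjusted p = 0.0238). Both transcription factor genes of the group moved more in the marrow. Klf9, which encodes a Krüppel-like repressor, had 2.50 ± 0.23 in the marrow (adjusted p = 2.73e-05) and 1.10 ± 0.22 in the lung (adjusted p = 0.0293), and Cebpd, a regulator of the acute phase response, had 2.72 ± 0.31 in the marrow (adjusted p = 8.52e-05) and 1.46 ± 0.30 in the lung (adjusted p = 0.0311), with the difference between tissues called at adjusted p = 0.0064 and 0.0397. Of list members called on the average but not in the lung, Zbtb16 had 2.15 ± 0.58 there (adjusted p = 0.0821) and Sgk1 -0.07 ± 0.29 (adjusted p = 0.966). The count of 20 on the average was the same without any 1 library, but the count of 8 fell to 3 without lung control 2, to 4 without lung control 1 or lung AML 1 and to 5 without lung AML 2 or 3, and it was 15 in the DESeq2 test. Largest adjusted p in the lung without 1 library were 0.0666 without lung control 1 for Tsc22d3, 0.128 without lung control 2 for Klf9, 0.119 without lung control 2 for Cebpd, 0.102 without lung control 2 for Sult1a1 and 0.0512 without lung control 2 for Map3k6.

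**Figure D2:**
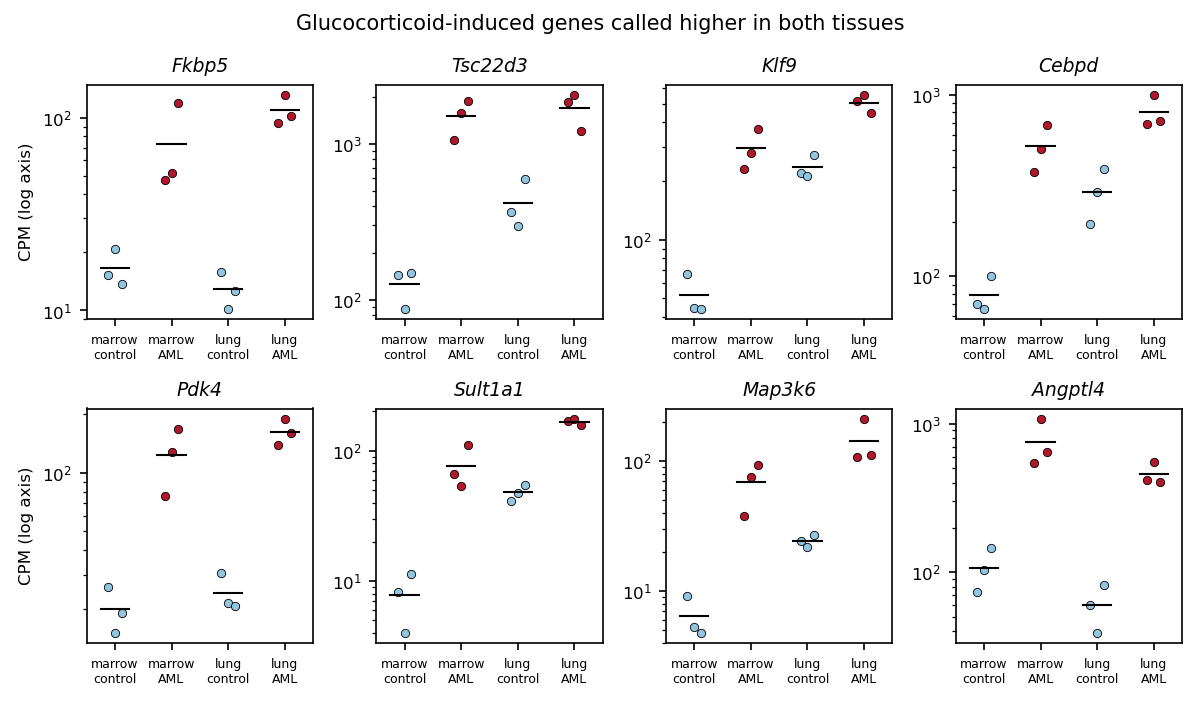
Points are single libraries in TMM-scaled CPM (log axis) for the 8 glucocorticoid-induced genes called higher in both tissues, with lines at the group means of 3 libraries. In each panel AML libraries lie above controls of the same tissue, as in 90 of the 91 genes called higher in both tissues. For Pdk4, controls ran from 15.1 to 30.5 CPM and AML libraries from 76.1 to 189 CPM.

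The glucocorticoid receptor binds as a dimer to a pair of inverted copies of AGAACA, and promoters were read to show whether that letter string lies close to the start sites of these genes. A RefSeq promoter table on GRCm38.p6, with windows of 300 bases from 250 before to 50 after a start site, held 6 of the 8 genes in 8 windows. AGAACA, searched on both strands, was in 2 of those 8 windows, in 18 of 84 windows of the genes higher in both tissues and in 19.0% of all 32851 windows. The stretches with AGAACA are shown for Sult1a1 and Tsc22d3, and for Fmo2, the gene with the smallest adjusted p in the lung among the 146. Capitals mark the matches (TGTTCT is the same string on the other strand), each line runs 5′ to 3′ on the strand of the gene, and only the 250 bases before the start site are printed. All 3 genes lie on the minus strand, Sult1a1 at chr7:126676419-126676668, Tsc22d3 at chrX:140600523-140600772 (1 of its 3 windows) and Fmo2 at chr1:162898494-162898743 (1 of its 2 windows).
Sult1a1: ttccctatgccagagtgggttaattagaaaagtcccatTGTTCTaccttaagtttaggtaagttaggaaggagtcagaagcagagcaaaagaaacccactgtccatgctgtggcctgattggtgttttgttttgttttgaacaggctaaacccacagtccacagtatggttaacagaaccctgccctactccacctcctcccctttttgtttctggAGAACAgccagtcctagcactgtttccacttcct
Tsc22d3: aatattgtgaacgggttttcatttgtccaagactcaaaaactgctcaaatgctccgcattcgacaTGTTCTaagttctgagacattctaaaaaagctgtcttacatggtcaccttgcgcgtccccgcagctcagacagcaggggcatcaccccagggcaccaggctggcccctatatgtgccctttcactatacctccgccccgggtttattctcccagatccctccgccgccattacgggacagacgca
Fmo2: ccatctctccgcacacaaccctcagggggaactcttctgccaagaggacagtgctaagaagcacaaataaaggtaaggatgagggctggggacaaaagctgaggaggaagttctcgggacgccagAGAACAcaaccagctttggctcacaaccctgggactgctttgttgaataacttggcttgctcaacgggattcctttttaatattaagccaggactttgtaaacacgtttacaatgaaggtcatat
The matches began 212 and 34 bases before the start site in Sult1a1, 185 before it in Tsc22d3 and 125 before it in Fmo2. A match of 6 letters is a description of the window and not a binding site.

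Most listed clock genes were higher on the average, mainly by their marrow effect. Of 20 circadian clock genes listed, 19 were tested, and 16 were higher on the averaged effect, against 13.8% of all tested genes, with none lower there, at an unadjusted p under 0.05 or in DESeq2. They had median log2 fold changes of 1.36 on the average, 1.87 in the marrow and 0.83 in the lung. Fitted effects were positive in both tissues for 17 of the 19, and 16 passed the test in the marrow (20.4% of all tested genes were higher there), but in the lung only Per2, a repressor of the clock, did (1.17% were). Per2 had 9.82, 9.85 and 9.88 CPM in marrow control libraries 1, 2 and 3, 36.1, 51.7 and 20.1 in marrow AML, 27.0, 20.8 and 33.9 in lung control and 76.3, 104 and 83.1 in lung AML. Controls lay below AML in each tissue, and marrow AML 3 was the lowest AML library. Its effects were 1.87 ± 0.31 in the marrow (adjusted p = 0.000768) and 1.69 ± 0.31 in the lung (adjusted p = 0.0207), and the lung call was lost in 5 of the 12 fits without 1 library (largest adjusted p = 0.0944 without lung control 2). Nr1d1, a nuclear receptor of the clock, and Tef, an output factor, were called in the marrow, at 2.15 ± 0.19 and 2.30 ± 0.25, with lung values of 0.37 ± 0.19 (adjusted p = 0.37) and 1.01 ± 0.23 (adjusted p = 0.0511). Nfil3, which represses the same targets as Tef, had 2.58 ± 0.28 and 0.74 ± 0.27 (adjusted p = 0.182 in the lung). Per1 stands on both the clock and the glucocorticoid list. The DESeq2 test called 4 of the 19 higher in both tissues. The hour of sampling is not given in the sources used here.

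Among the 146 genes called the same way in both tissues, the smallest adjusted p on the average was that of Fmo2 (chr1:162874317-162898726), a flavin-containing monooxygenase of the lung. Fmo2 had 14.2, 14.0 and 9.05 CPM in marrow control libraries 1, 2 and 3, 201, 241 and 238 in marrow AML, 249, 202 and 337 in lung control and 2485, 2877 and 1945 in lung AML. Marrow AML libraries were at the level of the lung controls, and the groups did not overlap in either tissue. Its effects were 4.19 ± 0.27 in the marrow (adjusted p = 1.17e-05) and 3.21 ± 0.26 in the lung (adjusted p = 0.000647), with an averaged log2 fold change of 3.70 ± 0.19 (adjusted p = 4.49e-06), and it was called in both tissues in all 12 fits without 1 library. Trap1a (chrX:139333683-139338169) encodes P1A, a tumour antigen found on a mouse mastocytoma. It had 0.186, 0.201 and 2.82 CPM in marrow control libraries 1, 2 and 3, 221, 243 and 206 in marrow AML, 0.130, 0.307 and 0.0740 in lung control and 39.3, 5.95 and 10.9 in lung AML, and the control values rest on 4, 4 and 47 counts in the marrow and 3, 8 and 2 in the lung. All 6 AML libraries were above all 6 controls, and lung AML 1 was the highest lung library. Its effects were 7.77 ± 1.06 in the marrow (adjusted p = 0.000241) and 6.74 ± 1.12 in the lung (adjusted p = 0.0145), with the lung call lost without lung control 2 (adjusted p = 0.0587) or lung control 1.

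Several of the named rises encode secreted or matrix proteins. Igfbp3 (chr11:7206086-7213923), a carrier of insulin-like growth factors, had 8.94, 10.1 and 8.93 CPM in marrow control libraries 1, 2 and 3, 381, 621 and 386 in marrow AML, 61.1, 27.4 and 164 in lung control and 835, 717 and 668 in lung AML. The groups did not overlap, and lung control 3 was the highest control. Its effects were 5.63 ± 0.58 in the marrow (adjusted p = 4.84e-05) and 3.14 ± 0.52 in the lung (adjusted p = 0.0138), and the lung call was lost without lung control 1 (adjusted p = 0.0618) or lung AML 1. Gpx3 (chr11:54902453-54910377), a secreted glutathione peroxidase, had 558, 534 and 926 CPM in marrow control libraries 1, 2 and 3, 4812, 9201 and 7870 in marrow AML, 769, 233 and 904 in lung control and 3911, 6097 and 3197 in lung AML. AML libraries lay above controls in both tissues. Effects were 3.44 ± 0.51 in the marrow (adjusted p = 0.000361) and 2.79 ± 0.49 in the lung (adjusted p = 0.0177), and the lung call was lost without lung AML 1 (adjusted p = 0.0629) or lung control 1.

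Spp1 (chr5:104435118-104441050) encodes osteopontin, a matrix protein of bone that also acts as a cytokine. It had 847, 642 and 1304 CPM in marrow control libraries 1, 2 and 3, 4813, 12850 and 6910 in marrow AML, 45.5, 28.8 and 85.5 in lung control and 514, 436 and 173 in lung AML. The lung AML libraries lay below the marrow controls but above all lung controls. Spp1 effects were 3.14 ± 0.55 in the marrow (adjusted p = 0.00103) and 2.81 ± 0.55 in the lung (adjusted p = 0.0258), and 4 of the 12 fits without 1 library lost the lung call (largest adjusted p = 0.106 without lung control 1). Lox (chr18:52516067-52529867), the enzyme that crosslinks collagen, had 165, 111 and 191 CPM in marrow control libraries 1, 2 and 3, 317, 626 and 386 in marrow AML, 16.7, 9.95 and 28.8 in lung control and 313, 552 and 424 in lung AML. It was the only member of the collagen and basement membrane list called higher in both tissues, and its AML libraries reached the same range in both. The lung effect was the larger, 1.51 ± 0.39 in the marrow (adjusted p = 0.00954) and 4.54 ± 0.45 in the lung (adjusted p = 0.00161), with the difference called at adjusted p = 0.00236, and Lox was called in both tissues in all 12 fits without 1 library.

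The other named rises were Trnp1, a nuclear protein known from brain development, Adamts15, a secreted metalloprotease, Dpep1, a dipeptidase, Galnt15, an enzyme of mucin-type glycosylation, and P4ha3, a subunit of collagen prolyl hydroxylase. Trnp1 had 6.91 ± 0.69 in the marrow (adjusted p = 3.96e-05) and 3.20 ± 0.59 in the lung (adjusted p = 0.0209). Adamts15 had 3.08 ± 0.43 in the marrow (adjusted p = 0.000256) and 2.66 ± 0.41 in the lung (adjusted p = 0.0112). Dpep1 had 2.69 ± 0.50 in the marrow (adjusted p = 0.00133) and 2.86 ± 0.50 in the lung (adjusted p = 0.017). Galnt15 and P4ha3 had lung effects of 2.73 ± 0.57 and 2.62 ± 0.60, and their calls in both tissues were found in only 3 and 2 of the 12 fits without 1 library (largest adjusted p in the lung 0.138 without lung control 2 and 0.175 without lung control 1). For Trnp1 the lung call was lost without lung control 2, lung AML 1 or lung AML 3 (largest adjusted p = 0.0948), and for Dpep1 without lung AML 1 (adjusted p = 0.0648).

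**Figure D3:**
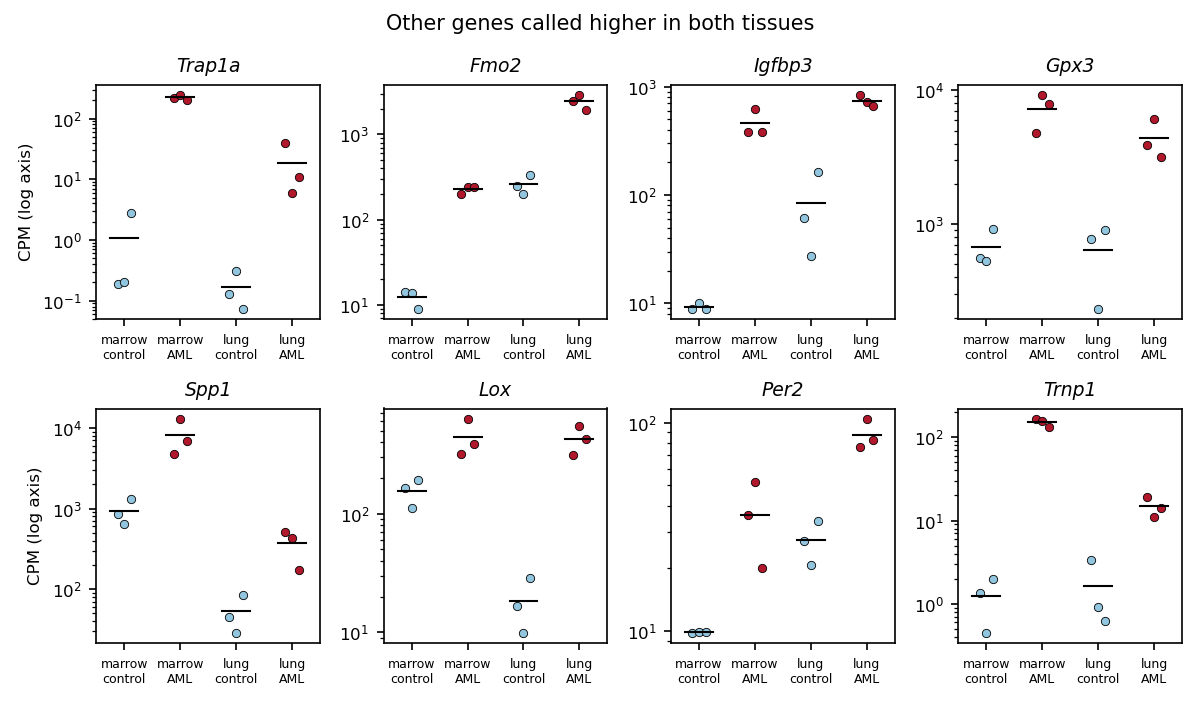
Points are single libraries in TMM-scaled CPM (log axis) for 8 genes outside the glucocorticoid list that were called higher in both tissues, with lines at the means of 3 libraries. Fmo2 in marrow AML (201 to 241 CPM) reaches the range of the lung controls (202 to 337 CPM), whereas Trap1a is under 3 CPM in all 6 controls.

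Stress and signalling lists were higher on the average mainly through the marrow. Counts here and below are to be read against all tested genes, of which 13.8% were higher and 15.3% lower on the average. In the marrow 20.4% were higher and 23.5% lower, and in the lung 1.17% and 1.16%. Immediate early genes, the first transcripts to follow a stimulus, were higher in 23 of 30 on the average, and 25 were higher in the marrow, but in the lung 1 was higher and 1 lower. Their medians were 1.88 in the marrow and 0.34 in the lung. Fos, a subunit of AP-1, had 934, 575 and 1111 CPM in marrow control and 5060, 6183 and 6620 in marrow AML, and 1745, 1095 and 1782 and 2185, 2534 and 2285 in the lung, where AML libraries were also above controls. Its effects were 2.77 ± 0.28 in the marrow (adjusted p = 4.47e-05) and 0.60 ± 0.27 in the lung (adjusted p = 0.288). Myc, the growth regulator, was the member called higher in both tissues, at 1.02 ± 0.34 and 1.56 ± 0.34 (adjusted p = 0.0296 and 0.0424), in 2 of the 12 fits without 1 library, with a largest lung adjusted p of 0.153 without lung control 1.

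The interleukin 6 and Stat3 list had 13 of 24 members higher and 3 lower on the average, with medians of 2.42 in the marrow and 0.20 in the lung. Stat3, the transcription factor of that pathway, had 45.6, 40.3 and 43.7 CPM in marrow control and 229, 232 and 274 in marrow AML. In the lung it had 319.8, 296 and 349.5 and 412, 496 and 469.7, without overlap in either tissue, and effects of 2.50 ± 0.15 in the marrow (adjusted p = 7.08e-06) and 0.51 ± 0.14 in the lung (adjusted p = 0.0862). Socs3, the feedback inhibitor of the pathway, and Cebpd were called in both tissues, Socs3 at 2.54 ± 0.25 in the marrow (adjusted p = 3.50e-05) and 1.03 ± 0.24 in the lung (adjusted p = 0.0479). The Socs3 call was found in 3 of the 12 fits without 1 library (largest adjusted p in the lung 0.188 without lung control 1). Of 27 tested NF-kappaB targets and adhesion genes, 12 were higher and 2 lower, with only Tnfaip3, which switches the pathway off, higher in both tissues (2.85 ± 0.26 and 1.10 ± 0.25), in 5 of the 12 fits without 1 library (largest adjusted p in the lung 0.196 without lung AML 1).

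Genes of glycolysis and the hypoxia response were higher in 23 of 35 and lower in 2 on the average, with medians of 1.69 in the marrow and 0.19 in the lung. Pkm, the last enzyme of glycolysis, had 3.35 ± 0.21 in the marrow (adjusted p = 8.12e-06) and 0.31 ± 0.19 in the lung (adjusted p = 0.487), and Aldoa, an aldolase, 2.37 ± 0.19 in the marrow (adjusted p = 1.68e-05) and 0.14 ± 0.18 in the lung (adjusted p = 0.821). Bnip3, a mitophagy receptor, and Hk2, the hexokinase of the first step, were called in both tissues. Bnip3 had 4.84, 4.62 and 8.15 CPM in marrow control libraries 1, 2 and 3, 65.3, 94.5 and 117 in marrow AML, 78.1, 50.8 and 70.0 in lung control and 189, 194 and 183 in lung AML. Controls and AML libraries were apart in each tissue, with effects of 3.98 ± 0.30 in the marrow (adjusted p = 1.50e-05) and 1.51 ± 0.27 in the lung (adjusted p = 0.0173), called in 9 of the 12 fits without 1 library (largest adjusted p in the lung 0.08 without lung control 2). Hk2 had 3.29 ± 0.32 in the marrow (adjusted p = 3.20e-05) and 1.21 ± 0.28 in the lung (adjusted p = 0.0492), was called in 4 of the 12 fits without 1 library and had a largest lung adjusted p of 0.229 without lung AML 3. Genes of the respiratory chain, which pass electrons to oxygen in mitochondria, were lower in 20 of 49 on the average, at a median of -0.37. Negative effects in both tissues were fitted for 36 of the 49, against 4624 of all 18147 tested genes. In the marrow 28 were called lower, at a median of -0.64, but none was called in the lung, at a median of -0.19.

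Most listed genes that define endothelium were lower in AML on the average, and 7 of 25 passed the test in both tissues. All 25 pan-endothelial genes were tested, and 20 were lower on the averaged effect, against 15.3% of all tested genes, with none higher there, at an unadjusted p under 0.05 or in DESeq2. They had median log2 fold changes of -2.67 on the average, -1.87 in the marrow and -3.24 in the lung. In the marrow 11 were lower and 1 higher, where 23.5% and 20.4% of all tested genes were, and in the lung 13 were lower, where 1.16% were. Lower in both tissues, as 0.303% of all tested genes were, were the 7 genes Cdh5, Tek, Kdr, Sox17, Eng, Ptprb and Sox7. The summed share of the 25 markers was lower in every lung AML library than in every lung control and overlapped between marrow control and marrow AML, as given above. Summed shares of lung capillary and marrow sinusoidal markers were higher in marrow AML, while that of lymphatic endothelial markers was lower. The 8 lymphatic genes took 0.00173 to 0.00222% of counts in marrow control and 0.000803 to 0.00155% in marrow AML. In the lung they took 0.0161 to 0.0889% in control and 0.00247 to 0.0126% in AML. Neither tissue had overlap, but no single lymphatic gene was called in either. The 16 lung capillary genes took 0.0351 to 0.0426% of counts in marrow control and 0.0766 to 0.114% in marrow AML, and the 14 marrow sinusoidal genes 0.0389 to 0.0548% and 0.0636 to 0.0878%, both without overlap. In the lung the capillary genes took 0.517 to 1.26% in control and 0.314 to 0.364% in AML, and the sinusoidal genes overlapped, at 0.257 to 0.507% and 0.277 to 0.322%. Of the 16 capillary genes, 8 were called higher and 2 lower in the marrow, and 6 lower in the lung. Single sinusoidal genes did not all follow their sum. Of the 14, 4 were called higher and 2 lower in the marrow, where their median log2 fold change was -1.20, and 1 was lower in the lung. The part of a changed share of endothelial RNA in these values was not tested.

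Cdh5 (chr8:104101625-104144511), which encodes the VE-cadherin by which the cells were labelled, had 3.54, 6.53 and 4.67 CPM in marrow control libraries 1, 2 and 3, 0.389, 0.955 and 0.558 in marrow AML, 75.4, 348 and 140.3 in lung control and 3.90, 31.8 and 12.1 in lung AML. The groups did not overlap, and the highest library in each lung group was replicate 2. Its effects were -2.90 ± 0.82 in the marrow (adjusted p = 0.0141) and -3.56 ± 0.74 in the lung (adjusted p = 0.0325). Pecam1, another junction protein, had an averaged log2 fold change of -2.21 ± 0.56 (adjusted p = 0.0138) but was called in neither tissue alone, with -1.55 ± 0.80 in the marrow (adjusted p = 0.139) and -2.87 ± 0.80 in the lung (adjusted p = 0.092). Kdr (chr5:75932827-75978458), the main receptor for vascular endothelial growth factor, had 16.7, 15.7 and 26.9 CPM in marrow control libraries 1, 2 and 3, 3.24, 1.60 and 0.419 in marrow AML, 153, 568 and 333 in lung control and 13.2, 36.2 and 18.5 in lung AML. AML libraries were below controls throughout, with marrow AML 3 lowest. Its effects were -3.56 ± 0.70 in the marrow (adjusted p = 0.00186) and -3.96 ± 0.67 in the lung (adjusted p = 0.015).

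Tek (chr4:94739289-94874976), the receptor for angiopoietins, had 8.19, 14.9 and 9.88 CPM in marrow control libraries 1, 2 and 3, 0.907, 4.35 and 0.768 in marrow AML, 217, 789.7 and 290.4 in lung control and 21.1, 59.3 and 29.8 in lung AML. The groups did not overlap, and marrow AML 2 was closest to its controls. Its effects were -2.42 ± 0.71 in the marrow (adjusted p = 0.0173) and -3.56 ± 0.70 in the lung (adjusted p = 0.0275). Eng, a co-receptor for TGF-beta, had -1.73 ± 0.51 in the marrow (adjusted p = 0.0182) and -3.15 ± 0.54 in the lung (adjusted p = 0.0153). Of the transcription factors, Sox17 had -3.92 ± 0.77 in the marrow (adjusted p = 0.00192) and -2.62 ± 0.58 in the lung (adjusted p = 0.0412) and Sox7 -4.01 ± 0.80 in the marrow (adjusted p = 0.0021) and -3.24 ± 0.59 in the lung (adjusted p = 0.0207). Beyond the list, the Notch ligand Dll4 had -4.07 ± 0.94 and -4.02 ± 0.75, the apelin receptor Aplnr -3.80 ± 0.90 and -6.47 ± 0.87, and Lfng, which modifies Notch, -1.56 ± 0.44 and -2.16 ± 0.44. All these fell in both tissues at adjusted p under 0.05. Marrow AML libraries 1, 2 and 3 held 3, 2 and 3 counts of Sox17, 4, 2 and 3 of Sox7 and 13, 5 and 3 of Aplnr. Such low counts leave the sizes of their marrow effects uncertain.

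The endothelial calls in both tissues rested on single lung libraries. Without lung AML 1 or lung AML 3 none of the 25 was called in both tissues and without lung control 2 only 1 was, while 18, 17 and 17 were lower on the average. The count in both tissues was 4 without marrow control 2 or 3, 9 without lung AML 2 and 12 in the DESeq2 test. In limma-voom it was 0 with quality weights, where 7 were lower on the average, and 2 with a random replicate block, where 18 were. The largest adjusted p in the lung was 0.159 without lung AML 3 for Cdh5, 0.0858 without lung AML 3 for Kdr, 0.147 without lung AML 1 for Tek, 0.0857 without lung AML 3 for Eng, 0.174 without lung AML 3 for Sox17 and 0.105 without lung AML 3 for Sox7. In the marrow, Tek and Eng reached 0.0563 without marrow control 2 and 0.0642 without marrow control 2. Dll4 and Lfng were called in both tissues in 9 and 5 of the 12 such fits, and Aplnr in all 12.

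Among the other named falls, Cavin2 (chr1:51289126-51302960), a coat protein of caveolae, had 13.5, 15.9 and 9.05 CPM in marrow control libraries 1, 2 and 3, 1.30, 1.64 and 2.48 in marrow AML, 403, 835 and 459 in lung control and 90.0, 156 and 93.2 in lung AML. Its groups did not overlap, and its effects were -2.80 ± 0.38 in the marrow (adjusted p = 0.000235) and -2.32 ± 0.35 in the lung (adjusted p = 0.0112). Lmo2 (chr2:103957986-103981878), an adaptor of transcription factor complexes in blood and vessel cells, had 312, 324 and 242 CPM in marrow control libraries 1, 2 and 3, 84.8, 30.1 and 26.5 in marrow AML, 45.8, 106 and 62.5 in lung control and 17.4, 14.0 and 11 in lung AML. Marrow AML 1 lay closest to the controls, and again no group overlapped. Its effects were -2.63 ± 0.45 in the marrow (adjusted p = 0.000884) and -2.33 ± 0.45 in the lung (adjusted p = 0.025). Stom, an integral membrane protein abundant in red cells, had -1.96 ± 0.29 in the marrow (adjusted p = 0.000341) and -1.69 ± 0.28 in the lung (adjusted p = 0.0149), and Sipa1, which inactivates the small GTPase Rap1, -1.76 ± 0.27 in the marrow (adjusted p = 0.000505) and -1.54 ± 0.27 in the lung (adjusted p = 0.0181). Galnt10, an enzyme of mucin-type glycosylation, had -2.05 ± 0.36 in the marrow (adjusted p = 0.001) and -1.66 ± 0.36 in the lung (adjusted p = 0.0388). Lung calls were lost, among other fits, without lung AML 3 for Cavin2 (adjusted p = 0.0644), Lmo2 (0.129), Stom (0.0799) and Galnt10 (0.165), and without lung AML 1 for Sipa1 (0.101).

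**Figure D4:**
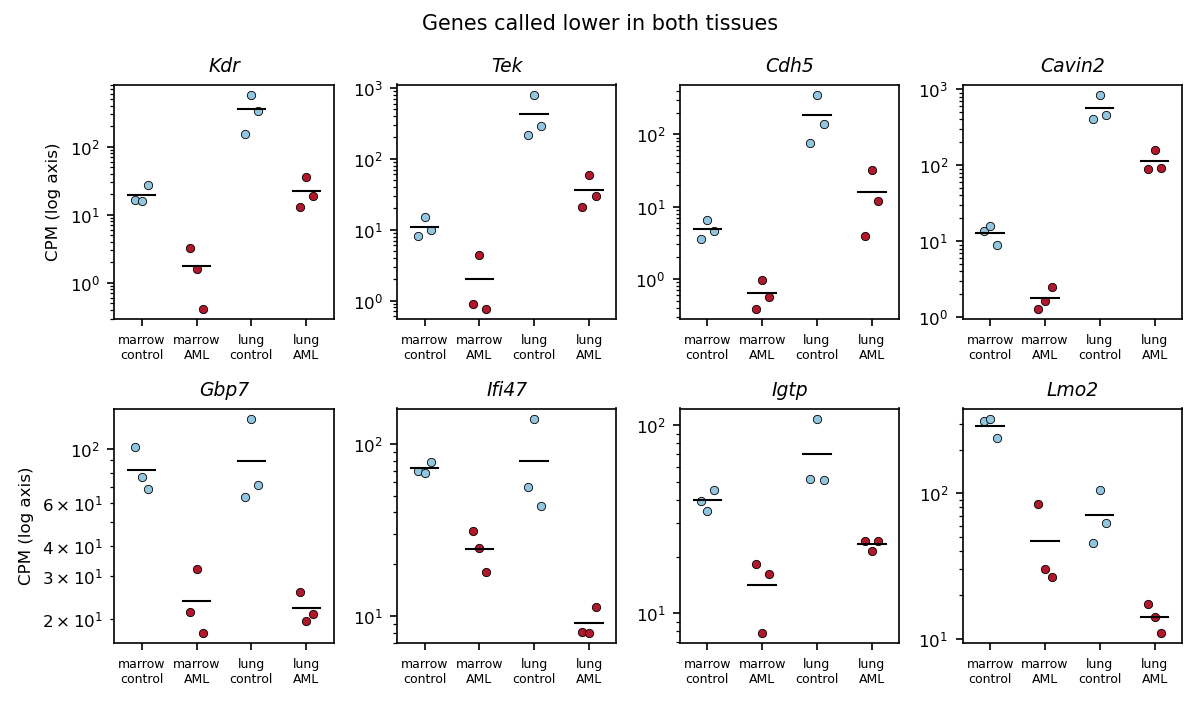
Points are single libraries in TMM-scaled CPM (log axis) for 8 genes called lower in both tissues, with lines at the means of 3 libraries. AML libraries lie below the controls of their tissue in every panel, as in 54 of the 55 genes called lower in both tissues. Lung control 2 is the highest lung library in each, as for Kdr with 568 CPM against 153 and 333 in the other lung controls.

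Listed interferon genes were lower more often than higher, and 3 of 36 passed the test in both tissues, all of them GTPase genes. Of 38 listed, 36 were tested, and 15 were lower on the averaged effect, against 15.3% of all tested genes. None was higher in edgeR, against 1 at an unadjusted p under 0.05 and 1 in DESeq2. The medians were -0.60, -0.60 and -0.61 on the average, in the marrow and in the lung. In the marrow 17 were lower and 6 higher, where 23.5% and 20.4% of all tested genes were, and in the lung 6 were lower, where 1.16% were. Lower in both tissues, as 0.303% of all tested genes were, were Gbp7, a guanylate-binding protein, and the immunity-related GTPases Ifi47 and Igtp.

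Gbp7 (chr3:142530342-142550149) had 102, 76.9 and 68.9 CPM in marrow control libraries 1, 2 and 3, 21.5, 32.3 and 17.6 in marrow AML, 63.7, 133 and 71.2 in lung control and 25.8, 19.7 and 20.9 in lung AML. AML libraries of both tissues fell into the same low range, below all controls. Its effects were -1.79 ± 0.32 in the marrow (adjusted p = 0.00101) and -2.01 ± 0.32 in the lung (adjusted p = 0.0114). Ifi47 (chr11:49076587-49096974) had 69.8, 67.7 and 79.0 CPM in marrow control libraries 1, 2 and 3, 31.1, 24.8 and 18.0 in marrow AML, 56.4, 139 and 43.5 in lung control and 8.12, 8.05 and 11.3 in lung AML. Its lung AML libraries were the lowest of the 12, and its effects were -1.55 ± 0.39 in the marrow (adjusted p = 0.00727) and -3.12 ± 0.41 in the lung (adjusted p = 0.00457), with the difference called at adjusted p = 0.046. Igtp (chr11:58199556-58207591) had 39.6, 34.9 and 45.1 CPM in marrow control libraries 1, 2 and 3, 18.3, 7.87 and 16.1 in marrow AML, 51.6, 108 and 51.3 in lung control and 24.2, 21.5 and 24.3 in lung AML. No group overlapped, and its effects were -1.50 ± 0.35 in the marrow (adjusted p = 0.00507) and -1.59 ± 0.35 in the lung (adjusted p = 0.0402). Ifi47 was called in both tissues in all 12 fits without 1 library. Gbp7 was called in 10, with a largest lung adjusted p of 0.068 without lung AML 3, and Igtp in 4, with 0.163 without lung AML 1.

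Other interferon genes differed in which tissue they were called. Cmpk2, an antiviral nucleotide kinase, had -3.89 ± 0.60 in the marrow (adjusted p = 0.000466) and -1.31 ± 0.54 in the lung (adjusted p = 0.25). Gbp2, another guanylate-binding protein, was called in opposite directions, at 1.15 ± 0.40 in the marrow (adjusted p = 0.0378) and -1.73 ± 0.40 in the lung (adjusted p = 0.0499). Gbp4 and Gbp9, which lie beside each other on chromosome 5 and were named after their values were seen, were lower in both tissues, Gbp4 at -4.58 ± 1.08 and -5.33 ± 0.97 and Gbp9 at -4.42 ± 0.71 and -3.25 ± 0.57. Their sequences are similar and their annotated spans overlap, so counting could have split reads between them. The 3 listed interferon genes lower in both tissues were 1 without lung AML 1 or lung AML 3 and 4 without marrow AML 3, and the 15 lower on the average were 8 without lung AML 2 and 10 without lung AML 1.

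Averaging also hid effects that ran in opposite directions. Erythroid genes were the clearest case, with medians of -3.56 in the marrow and 0.94 in the lung. Their summed share of counts did not follow in the lung, where it overlapped, at 0.0513 to 0.0545% in control and 0.0313 to 0.0587% in AML. Of 19 tested, 18 were lower in the marrow and 5 higher in the lung, and Klf1, Car1, Gata1 and Ermap were called in opposite ways. Klf1 (chr8:84901928-84905291), the master factor of red cell genes, had 839, 827 and 841 CPM in marrow control libraries 1, 2 and 3, 171, 111 and 89.8 in marrow AML, 0.783, 0.692 and 0.740 in lung control and 17.5, 5.35 and 9.70 in lung AML. Marrow AML libraries were far below marrow controls, while lung AML libraries, led by lung AML 1, rose from a level under 1 CPM. Its effects were -2.75 ± 0.37 in the marrow (adjusted p = 0.000217) and 3.88 ± 0.42 in the lung (adjusted p = 0.00239), and the average of 0.56 ± 0.27 was not called (adjusted p = 0.136). Without lung AML 2 the averaged effect of Klf1 was 0.85, with adjusted p = 0.0200.

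Rhd, a blood group antigen, and Ermap, another red cell membrane protein, had the same pattern, Rhd at -3.0 ± 0.64 in the marrow (adjusted p = 0.00322) and 3.63 ± 0.70 in the lung (adjusted p = 0.0248) and Ermap at -3.21 ± 0.61 in the marrow (adjusted p = 0.00156) and 3.96 ± 0.69 in the lung (adjusted p = 0.017). Fignl1, a DNA repair ATPase, had -2.58 ± 0.50 in the marrow (adjusted p = 0.00171) and 2.44 ± 0.52 in the lung (adjusted p = 0.037). The globin genes did not share the lung direction: Hba-a1 and Hbb-bs had -1.72 ± 0.84 (adjusted p = 0.347) and -3.21 ± 1.12 (adjusted p = 0.17) there. Lung calls of Rhd, Ermap and Fignl1 were lost in 5, 5 and 8 of the 12 fits without 1 library, with largest adjusted p of 0.117 without lung control 2, 0.0863 without lung control 2 and 0.125 without lung control 1, whereas Klf1 stayed called in both tissues in all 12.

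DNA replication genes split by tissue as well. Of 41, all 41 were lower in the marrow and 4 were higher in the lung, with medians of -2.41 and 0.65, so that 30 were lower on the average. The difference between tissues was called for 40 of the 41. Mcm7, a subunit of the replicative helicase, had 1337, 1410 and 1081 CPM in marrow control libraries 1, 2 and 3, 236, 149.6 and 151 in marrow AML, 28.1, 30.0 and 29.3 in lung control and 77.5, 58.9 and 53.1 in lung AML. Its groups did not overlap in either tissue, and the effects were -2.83 ± 0.23 in the marrow (adjusted p = 1.88e-05) and 1.12 ± 0.22 in the lung (adjusted p = 0.025), with the lung call lost without lung AML 1 (adjusted p = 0.12). Mcm10, Pole and Rfc4 were the other members called in opposite ways, and Pcna, the sliding clamp, had 0.32 ± 0.22 in the lung (adjusted p = 0.56). Mitosis genes had medians of -2.38 and 0.99, with 35 of 38 lower in the marrow and 2 higher in the lung. The count of 30 was 15 without lung AML 2 and 36 without marrow AML 1.

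Genes of vessel growth went the other way. Of 33 tested, 16 were higher and 6 lower in the marrow, and 1 was higher and 10 lower in the lung, with medians of 0.99 and -1.46. Of all tested genes, 20.4% were higher and 23.5% lower in the marrow, and 1.17% and 1.16% in the lung. Kdr, Tek, Dll4 and Aplnr were lower in both tissues, while Hey1, Esm1, Cxcl12 and Klf2 were called higher in the marrow and lower in the lung. Esm1, a proteoglycan of endothelial tip cells, had 78.5, 60.1 and 52.2 CPM in marrow control libraries 1, 2 and 3, 331, 401 and 284 in marrow AML, 88.3, 50.8 and 32.0 in lung control and 8.23, 7.11 and 10.3 in lung AML. Lung AML libraries lay below all others and marrow AML libraries above all others. Its effects were 2.41 ± 0.33 in the marrow (adjusted p = 0.000256) and -2.74 ± 0.34 in the lung (adjusted p = 0.00366), in 12 of 12 fits without 1 library. Cxcl12, the chemokine that holds blood stem cells in the marrow, had 1971, 1747 and 1393 CPM in marrow control libraries 1, 2 and 3, 3241, 4258 and 2651 in marrow AML, 209.5, 152 and 200 in lung control and 97.9, 65.4 and 42.4 in lung AML. Its libraries overlapped in neither tissue, with effects of 0.99 ± 0.30 in the marrow (adjusted p = 0.0194) and -1.45 ± 0.30 in the lung (adjusted p = 0.0327) and a largest adjusted p of 0.0725 without marrow control 3 in the marrow and 0.143 without lung AML 2 in the lung.

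Adm, the vasodilator peptide adrenomedullin, was higher on the average (3.21 ± 0.36, adjusted p = 0.00021) with a called effect in the marrow of 4.89 ± 0.54 and an uncalled 1.53 ± 0.47 in the lung. Tmem100 (chr11:90030348-90036508), a membrane protein of lung capillaries, had 16.0, 18.0 and 5.03 CPM in marrow control libraries 1, 2 and 3, 114, 119 and 122 in marrow AML, 441, 1128 and 579 in lung control and 34.5, 114 and 47.4 in lung AML. It rose in the marrow and fell in the lung without overlap, at 3.18 ± 0.57 in the marrow (adjusted p = 0.00107) and -3.46 ± 0.57 in the lung (adjusted p = 0.0138), and its average was -0.14 ± 0.37. Cav1, the main coat protein of caveolae, Gata3, a zinc finger factor, and Fmo1, a paralogue of Fmo2 that lies near it on chromosome 1, shared this pattern. Their marrow effects were 3.20 ± 0.63, 5.33 ± 0.77 and 3.0 ± 0.39, and their lung effects -2.99 ± 0.63, -3.09 ± 0.66 and -2.92 ± 0.38. Lung calls of Tmem100, Cav1 and Gata3 were lost in 2, 6 and 6 of the 12 fits without 1 library, with largest adjusted p of 0.0793 without lung AML 3, 0.174 without lung AML 1 and 0.186 without lung AML 1, and that of Fmo1 in none.

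MHC class I genes and their peptide supply had medians of 0.18 in the marrow and -0.84 in the lung. On the average 1 of 23 was higher and 8 were lower, against 13.8% and 15.3% of all tested genes. The immunoproteasome subunits Psmb8 and Psmb10 and the class I genes H2-T22 and H2-Q6 were called higher in the marrow and lower in the lung. Psmb8 had 16.6, 13.5 and 19.4 CPM in marrow control libraries 1, 2 and 3, 79.2, 107 and 81.7 in marrow AML, 85.4, 129.9 and 86.6 in lung control and 38.9, 42.8 and 45.6 in lung AML. Marrow AML libraries overlapped the lung control range, and lung AML libraries lay below it. Its effects were 2.44 ± 0.22 in the marrow (adjusted p = 2.48e-05) and -1.25 ± 0.21 in the lung (adjusted p = 0.0153), and 4 of the 12 fits without 1 library lost the lung call (largest adjusted p = 0.0891 without lung AML 1). Tap1, which pumps peptides to class I molecules, had -1.03 ± 0.31 in the marrow (adjusted p = 0.0187) and -1.32 ± 0.31 in the lung (adjusted p = 0.052), and B2m, the shared light chain, -0.73 ± 0.31 in the marrow (adjusted p = 0.0732) and -1.28 ± 0.31 in the lung (adjusted p = 0.058). The class I genes are close relatives, so counts of single members such as H2-Q6 are uncertain.

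Collagen and basement membrane genes were higher in 13 of 37 and lower in 4 on the average, against 13.8% and 15.3% of all tested genes. Their medians were 1.39 in the marrow and -0.22 in the lung. The laminin chains Lama5 and Lama4 were called in the marrow at 3.94 ± 0.33 and 2.78 ± 0.40 and had -0.66 ± 0.29 and 0.88 ± 0.38 in the lung, neither called. Col1a1, the main collagen of bone, had 7721, 6364 and 6309 CPM in marrow control and 1010, 439 and 190.2 in marrow AML, and 305, 131 and 376 and 95.1, 58.5 and 81.7 in the lung. Both AML groups lay below their controls, with effects of -3.64 ± 0.57 in the marrow (adjusted p = 0.000531) and -1.78 ± 0.53 in the lung (adjusted p = 0.111). Mast cell and basophil genes were higher in 6 of 10 on the average, with medians of 5.95 in the marrow and 1.69 in the lung, where none was called. Marrow control libraries 1, 2 and 3 held 0, 0 and 1 counts of Cpa3, 0, 1 and 0 of Cd200r3 and 1, 0 and 0 of Prss34, against 31, 62 and 9 of Hdc. Folds of the first 3 depend on the fit's prior count, so the size of the marrow median is uncertain. The summed share of the 12 listed genes was 0.0354 to 0.0469% of counts in lung control and 0.0163 to 0.0213% in lung AML, lower without overlap, against 0.00817 to 0.0114% in marrow control and 0.0164 to 0.0307% in marrow AML. Hdc, the histamine-forming enzyme, had 1.44, 3.12 and 0.539 CPM in marrow control, 115, 68.3 and 58.1 in marrow AML, 395, 165 and 239.9 in lung control and 134, 141 and 135 in lung AML, with effects of 5.54 ± 0.56 in the marrow (adjusted p = 4.37e-05) and -0.97 ± 0.45 in the lung (adjusted p = 0.321).

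Of other lists, the TGF-beta response had 19 of 32 higher and 3 lower on the average, with Tgfbr3, a co-receptor, higher in both tissues and Eng lower in both, and medians of 1.56 in the marrow and -0.03 in the lung. Targets of p53 were higher in 10 of 26 and lower in 2, and fatty acid genes higher in 9 of 34 and lower in 5. Other lists, to be read against 13.8% of all tested genes higher and 15.3% lower, were the unfolded protein response (5 higher and 3 lower of 26), heat shock chaperones (4 and 7 of 28), the Nrf2 response (7 and 4 of 26), iron handling (5 and 5 of 21) and cholesterol synthesis (1 and 3 of 24). Cytosolic ribosomal proteins had 1 of 46 lower on the average while 25 were lower in the marrow. The 8 mitochondrially encoded transcripts tested had a median of -0.58 on the average. MHC class II genes had 3 of 11 lower, and coagulation genes 7 of 23 higher and 4 lower.

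**Figure D5:**
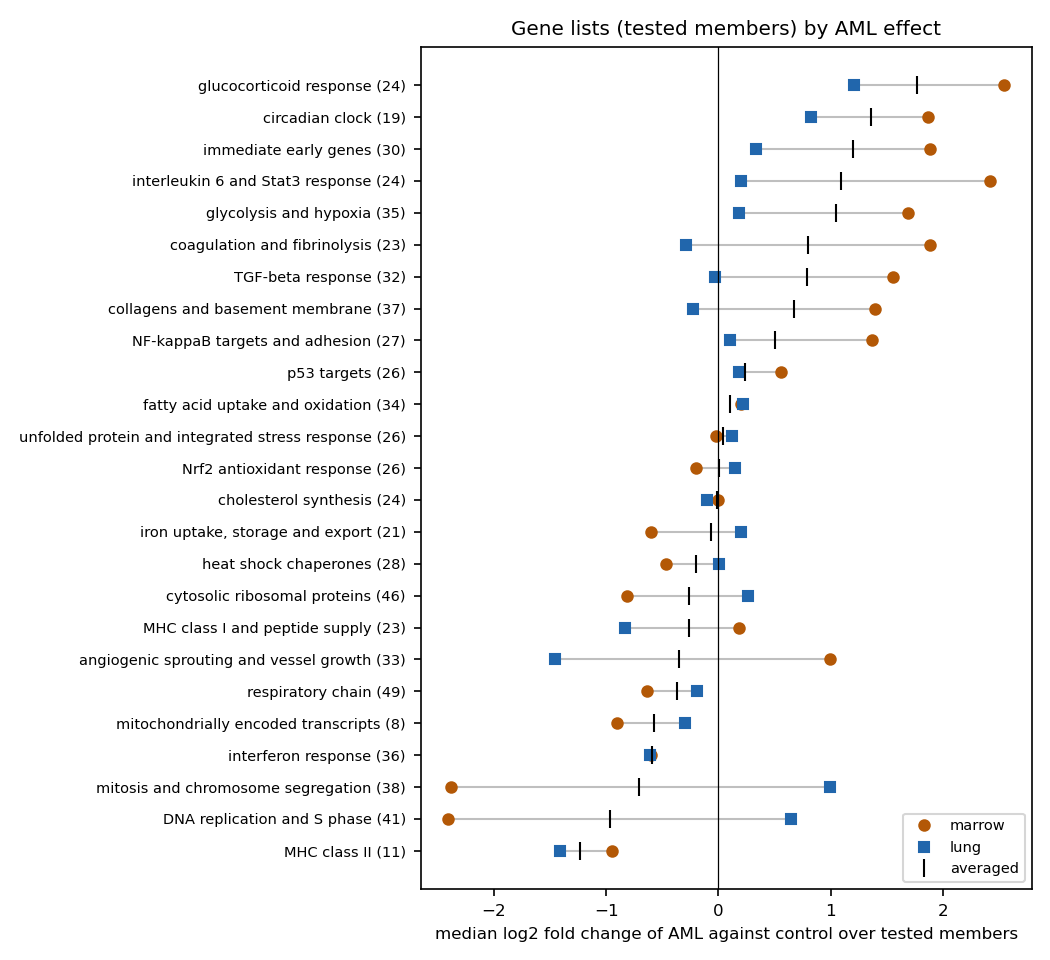
For each pathway gene list, with the number of tested members in brackets, symbols give the median log2 fold change of AML against control in the marrow (circles), in the lung (squares) and on the average (bars). Among the lists drawn, the glucocorticoid list has the highest lung median (1.21). Medians of opposite sign in the 2 tissues are found for DNA replication, mitosis and vessel growth. Other lists share this, among them MHC class I, collagens, ribosomal proteins, coagulation and iron handling.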

How the data were processed

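Low-input RNA-seq libraries of 12 samples, 3 in each of 4 groups taken from the labels, were analysed. Per the submitters' processing notes, bcl2fastq, STAR and the build mm10 (GRCm38) were used. Gene annotation, counting tool and versions were not given in the sources used here. In the deposited files, the values are raw counts per gene symbol for 55291 symbols, without normalisation by the authors. Counting ignored strand, per the file names, so reads of genes that overlap, in either orientation, cannot be told apart. No 2 libraries of a group held identical counts (Spearman rho 0.913 to 0.986 within groups), and each was counted as 1 replicate.

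Counts were fitted in R 4.3.3 with edgeR 4.0.16 (quasi-likelihood F test, TMM factors, robust option, filter of minimum count 10 and total 15) as 4 group means over all 12 libraries with 8 residual degrees of freedom. The averaged contrast weighted each tissue by 0.5, and the marrow effect, the lung effect and their difference came from the same fit. Calls are at a Benjamini-Hochberg adjusted p under 0.05 over all 18147 genes. Effects are log2 fold changes ± standard error, and CPM are TMM-scaled.

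Named genes were the 12 largest rises and 12 largest falls called the same way in both tissues, ranked by the smaller tissue effect, given a mean of 10 CPM or more in each tissue's higher group and libraries that did not overlap, 4 per pattern of opposite calls, up to 4 members with the smallest p per list described and its members called in opposite ways, and Cdh5, Pecam1, Ptprc and Trp53. Other list members called in both tissues, and genes said so in the text, were chosen after their values were seen. Members and lists were chosen with earlier results of these data known. Positions are from GENCODE M21 (145 of 146 symbols matched) and promoters from RefSeq. Motifs also searched were the E-box CACGTG, TGACGTCA of CREB, TGANTCA of AP-1, ACGTG of hypoxia-inducible factors, CCAAT of NF-Y, GAANNTTC of heat shock factors and CCGGAAGT of ETS factors, and further motif searches are not reported here. Alternatives used DESeq2 1.42.0 and limma 3.58.1. Figures were drawn with matplotlib 3.10.9, and the fit was tested on simulated data. Total counts of 12.8 to 39.2 M set the precision for low genes, where single counts decide a value.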

Additional observations from a re-analysis of the deposited data

Results flagged for a closer look

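For 57 of the 88 named genes the AML effect differed between marrow and lung in the edgeR test of that difference (adjusted p under 0.05, Benjamini-Hochberg over all 18147 genes), where 5567 of all tested genes (30.7%) did. The difference is given as the marrow effect minus the lung effect on the log2 scale. It was positive for 42 genes and negative for 15, and genes named for opposite effects were chosen for it. Positive differences included 7.81 for Cpa3 and 7.23 for Cd200r3, whose marrow control libraries held 0, 0 and 1 and 0, 1 and 0 counts, so both values depend on the fit's prior count and have no place in the order. Gata3, with 1, 4 and 14 counts in marrow control, had 8.42. The widest of the others were 6.64 for Tmem100, 6.51 for Hdc, 6.19 for Cav1 and 5.92 for Fmo1. Below these came 5.89 for Hey1, 5.15 for Esm1, 4.59 for Lama5, 4.49 for H2-Q6, 4.42 for Klf2, 3.71 for Trnp1 and 3.68 for Psmb8. They were followed by 3.61 for Dusp5, 3.36 for Adm, 3.04 for Pkm, 2.88 for Gbp2, 2.52 for Psmb10, 2.50 for Igfbp3 and 2.47 for Bnip3. Then came 2.47 for Osmr, 2.44 for Cxcl12, 2.23 for Aldoa, 2.17 for Fos, 2.08 for Hk2, 2.05 for Psmb9 and 2.0 for H2-T22. Further down stood 1.99 for Stat3, 1.90 for Lama4, 1.85 for Zfp36, 1.84 for Nfil3, 1.78 for Nr1d1, 1.57 for Ifi47 and 1.54 for Tsc22d3. The smallest positive differences were 1.53 for Fosb, 1.51 for Socs3, 1.40 for Klf9, 1.29 for Tef, 1.26 for Cebpd, 0.98 for Fmo2 and 0.95 for Nr1d2. The widest negative differences, where the lung effect was the more positive, were -7.17 for Ermap, -6.63 for Rhd, -6.63 for Klf1, -6.08 for Mcm10, -5.01 for Fignl1, -4.22 for Pole, -3.95 for Mcm7 and -3.11 for Rfc4. The others were -3.03 for Lox, -2.89 for Slbp, -2.69 for Pcna, -2.58 for Cmpk2, -2.07 for Pola2, -1.74 for Rfc2 and -0.98 for Canx.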

How the results depend on the processing

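Averaged log2 fold changes of named genes were compared in 2022 values under alternatives. None changed sign where the main or the alternative value was called. Sign changes where both values were uncalled, as for averages close to no change, were not counted as reversals. Of the 2022 values, 1986 stayed on the same side of the threshold, 28 were no longer called and 8 became called, and 16 of the 28 were in the additive fit. The TMM factors without cell type marker genes and the fit without the robust option moved no count of calls by over 1.5 times. Genes higher in both tissues (91) were 29 in the test against a 1.5-fold change, 60 with a replicate block, 337 in limma-voom with quality weights, 166 in limma-voom with a random replicate block, 292 in DESeq2, 169 with each tissue fitted alone and 22 when the larger of the 2 tissue p-values was adjusted. Genes lower in both (55) were 15, 59, 117, 70, 215, 69 and 9 in the same order. These sets did not always hold the same genes. Of the 91 themselves, 29, 51, 81, 84, 91, 82 and 22 were kept in that order, and of the 55, 15, 44, 22, 37, 53, 35 and 9. On the average, 1089 were higher and 762 lower in the 1.5-fold test and 592 and 461 in the additive fit, and the filter of 5 CPM left 1777 lower. Without 1 library, counts ranged from 20 to 142 higher and 3 to 88 lower in both tissues, and on the average from 1999 to 2892 higher and 1373 to 3344 lower. Higher genes made up 47.5% of calls on the average, 59.8% with library totals alone and 60.9% with the 5 CPM filter, which moved the median of all genes from -0.079 to 0.038 and 0.047. No named gene's tissue effect changed sign under another scaling. Of the 146 genes, 19 were called the same way in all 12 fits without 1 library and 47 in at least 9. Replicate numbers showed no steady pairing of libraries across groups: 4 of 18 same-numbered pairs had deviations correlated above 0.1 (range -0.227 to 0.239). The consensus correlation within a treatment was 0.017. With 3 libraries per group these values cannot exclude that marrow and lung libraries came from the same mice, and the main fit treated all libraries as independent. The cause of the changes between settings was not tested. Depth limits genes with few control counts, such as Trap1a.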

Other observations

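Some of the steepest rises in both tissues were genes known mainly from the germ line, chosen here after their values were seen. Gtsf1, a factor of the piRNA pathway, had 0.0931, 0.101 and 0.899 CPM in marrow control, 42.2, 34.5 and 39.1 in marrow AML, 0.0435, 0.0384 and 0 in lung control and 2.96, 1.88 and 1.71 in lung AML. Tex19.2, a gene of the testis, had 0.0465, 0.0503 and 0.599, 38.1, 36.3 and 16.5, 0.0435, 0.0768 and 0 and 1.52, 0.642 and 1.91 CPM in the same order. Marrow control 3 was the highest control for both and for Trap1a, and all AML libraries lay above all controls of their tissue. These controls rest on a few counts, so no fold is given.

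Genes called the same way in both tissues lay in pairs in places. The neighbours Gml and Gml2, 0.256 kb apart on chromosome 15, had 9.32 to 31.7 and 20.97 to 46.3 CPM in marrow AML against 0.512 to 0.804 and 0.754 to 2.097 in marrow control, and so few counts in lung control that no fold is given. Serpina3c, a serpin gene with the neighbour Serpina3m on chromosome 12, had an averaged log2 fold change of 3.40 ± 0.34. Among falls, Gimap1 and Gimap8, GTPases of lymphocytes, lay 78.2 kb apart on chromosome 6, with lung log2 fold changes of -3.31 ± 0.63 and -3.26 ± 0.72 and marrow AML libraries at 0 to 0.105 and 0 to 0.0647 CPM. Members of such families are close relatives, and counts could be split between them. Ifngr1, a chain of the interferon gamma receptor, was higher in both tissues, at 2.78 ± 0.20 in the marrow (adjusted p = 1.26e-05) and 1.24 ± 0.19 in the lung (adjusted p = 0.0108), and was called in all 12 fits without 1 library.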
